A study of Homo sapiens with 12 samples.

Results

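The mitochondrial ribosomal protein genes were examined in RNA of breast cancer tissue grown in a plate kept under flow. Members were the rows of the count table whose GENCODE 29 symbol is MRPL or MRPS followed by digits, with A, B or C where one is given, that are protein-coding and that average at least 1 count per 1e+06 counts (CPM) over the 12 libraries. The rule gave 77 of 58735 genes, 49 named for the large subunit (MRPL) and 28 for the small subunit (MRPS). Of 78 protein-coding genes with such a symbol, MRPS24 fell below the limit, with a mean of 0.286 CPM, and shared 23.2% of its exon bases with other genes.

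Each library came from GFP-labelled MDA-MB-231 cells, a triple-negative human breast cancer line, embedded in fibrin gel in the AngioPlate and kept under flow. The cancer tissue was alone (monoculture) or had a neighbouring tissue. That neighbour was the hepatoma-derived line HepG2 and 2% fibroblasts of the lung in the hepatic co-culture. It was iPSC-derived cardiomyocytes, made from reprogrammed stem cells, and 2% fibroblasts of the heart in the cardiac co-culture. All groups shared the cancer line, the gel and the flow, RNA was taken on day 5, and each group had 4 libraries. The labels call these biological replicates but do not name the cultures, so the tests weigh differences against the spread among these libraries alone. The comparisons ask how the cancer tissue's expression differs when hepatic or cardiac tissue is its neighbour.

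The mitochondrial ribosome translates the mRNAs of the mitochondrial genome, which encode core subunits of the respiratory chain and the ATP synthase. Its rRNAs are transcribed inside the organelle, while its proteins are encoded in the nucleus, made on cytosolic ribosomes and imported. The small subunit reads the mRNA and the large subunit forms the peptide bonds, and many of the proteins have a bacterial counterpart while others are found in mitochondria alone.

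The members lay on 21 chromosomes, so what they shared at their start sites was examined first. RefSeq windows from 250 bases before to 50 bases after a start (GRCh38.p14) were found for 68 of the 77 members, and those of MRPL2, MRPL10, MRPL13, MRPL15, MRPL21, MRPL23, MRPL35, MRPS28 and MRPS36 were not among them. A gene counted once if any of its windows held the letters on either strand. The ETS motif CCGGAAG, the core bound by factors such as GABP, was in 30 of 68 members (44.1%). It was in 22.7% of 9804 expressed protein-coding genes, in 12.2% of all 27305 genes of the table and in 36.2% of 58 cytosolic ribosomal protein genes. The YY1 motif was in 12 members (17.6%), against 3.36% of expressed protein-coding genes and 5.17% of cytosolic ribosomal protein genes. The NRF1 motif was in 1 member (1.47%), against 2.64% of expressed protein-coding genes. The SP1 motif GGGCGG was in 60.3% of the members and 77.7% of expressed protein-coding genes. Positions were taken in each window, so a site in overlapping windows of a gene, as in MRPL47, MRPS12 and MRPS22, counted in each. Of the members, 11 had more than 1 window. The median position of the 45 ETS matches so counted was 26 bases before the start, and 9 of the 12 YY1 matches began after the start.

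The stretches below show the ETS motif where it lay upstream of the RefSeq start and outside every GENCODE 29 exon, in the 6 members with the highest monoculture CPM of the 8 where this was so. Capitals mark the motif or its reverse complement CTTCCGG, and each reads 5′ to 3′ on the strand of its gene in GRCh38.p14. They are MRPS10 (chr6:42217866-42217910, minus strand), MRPL3 (chr3:131502984-131503030, minus), MRPL18 (chr6:159790414-159790465, plus), MRPS22 (chr3:139343880-139343940, plus), MRPL58 (chr17:75012450-75012510, plus) and MRPL20 (chr1:1407314-1407364, minus).
MRPS10: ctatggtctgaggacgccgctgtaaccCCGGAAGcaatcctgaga
MRPL3: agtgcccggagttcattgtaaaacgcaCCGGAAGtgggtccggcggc
MRPL18: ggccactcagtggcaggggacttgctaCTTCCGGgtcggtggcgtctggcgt
MRPS22: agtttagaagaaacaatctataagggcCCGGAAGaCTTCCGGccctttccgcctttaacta
MRPL58: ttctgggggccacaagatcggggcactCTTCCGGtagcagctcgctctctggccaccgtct
MRPL20: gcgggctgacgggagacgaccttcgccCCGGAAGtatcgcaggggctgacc
In MRPS22 the motif stood on both strands, beginning 87 and 79 bases before the start. In the stretches shown for the other members it began between 22 and 193 bases before the start. Further matches lay outside the stretches, 21 bases before the start in MRPL20, 8 before it in MRPL58 and 6 after it in MRPS22. A letter match is a description and shows neither binding nor use.

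MRPL19, which was lower in both co-cultures (below), was the only one of those 6 members with a RefSeq window and at least 40 upstream bases outside exons. Its 120 bases before the start (chr2:75646663-75646782, plus strand) held no match to any of the 8 motifs searched: those above and the CCAAT box, TATA box, E-box and CRE.
MRPL19: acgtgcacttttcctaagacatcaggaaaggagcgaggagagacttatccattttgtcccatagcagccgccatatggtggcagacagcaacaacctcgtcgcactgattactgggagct
Of the 18 members lower in the hepatic co-culture, 15 had a window, and 5 of these (33.3%) held the ETS motif and 1 held the YY1 motif.

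Start sites shared with a neighbour were the other common feature. In GENCODE 29, 26 of the 77 members (33.8%) had an expressed protein-coding gene on the opposite strand starting within 1000 bases. The same held for 15.6% of 12283 expressed protein-coding genes and 20.3% of the 74 cytosolic ribosomal protein genes. Neighbours with a mean below 1 CPM were not counted. The starts of MRPL46 and MRPS11 lay 34 bases apart, so here a large and a small subunit gene faced away from each other. MRPL47 began 36 bases from NDUFB5, and MRPL36 began 34 bases from NDUFS6, both of which encode subunits of respiratory complex I. MRPL43 overlapped the start of TWNK, the mitochondrial DNA helicase.

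In monoculture the libraries held 35.04 to 42.05 M counts (1 M is 1e+06), with 26.2 to 42.4 M in hepatic and 26.99 to 37.4 M in cardiac libraries. The members took 0.372 ± 0.015% of the counts in monoculture, 0.324 ± 0.016% in hepatic and 0.325 ± 0.021% in cardiac libraries (SD, n = 4). Cardiac replicate 4 stood apart from its group: on the first principal component (28.5% of the variance) it lay at -24.9, among the monoculture libraries (-51.0 to -22.3) and away from the other cardiac libraries (6.79 to 16.3). Cardiac counts and sums are therefore also given without it, and single-gene cardiac estimates include it unless stated. ALB, the albumin of hepatocytes, had 0 to 14 counts in any library, and MYH6, a cardiac myosin, had 21 counts in cardiac replicate 4 and 0 elsewhere. Summed over the whole lists, 20 hepatocyte markers took 62.0 to 100.9 CPM in monoculture, 41.9 to 73.9 CPM in the hepatic and 98.0 to 137 CPM in the cardiac co-culture, and 20 cardiomyocyte markers 17.9 to 21.0, 22.0 to 23.7 and 21.3 to 23.8 CPM. The 17 fibroblast markers took 544 to 602, 385 to 595 and 518 to 643 CPM, and the 8 endothelial markers 73.1 to 84.5, 99.7 to 109 and 81.4 to 90.5 CPM. Only part of each list carried its sum. At a mean of 1 CPM or more in a group were 2 to 3 hepatocyte, 3 cardiomyocyte, 8 to 9 fibroblast and 3 to 5 endothelial markers. SERPINA1, a hepatocyte marker, had 880 to 3208 counts per library. The fibroblast markers DPT, THY1 and POSTN had 0 counts in every library, and PDGFRA had 0 to 14. In these bulk samples fewer cells of a type and less RNA per cell cannot be told apart, and the part of the markers in the results that follow was not tested.

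Levels per exon length (CPM divided by exon length in kilobases, RPKM) spanned a wide range in monoculture. MRPS34 was highest at 73.98 ± 6.69 RPKM, followed by MRPS10 at 69.1 ± 4.56 and MRPL14 at 60.4 ± 4.84 RPKM (SD, n = 4). These neighbours in the order lay within about 1 to 2 SD of each other. The lowest were MRPL53 at 1.40 ± 0.52, MRPL46 at 0.784 ± 0.082 and MRPL38 at 0.499 ± 0.11 RPKM. The median level was 18.4 RPKM over the 49 MRPL genes and 12.7 RPKM over the 28 MRPS genes. Since 40 members share exon bases with another gene, some levels are uncertain. The strand setting of the counting is not given, and it bears only on bases shared with the opposite strand. MRPL12, the factor-binding stalk protein, shared 68.2% of its exon bases, MRPS18A 47.0%, MRPL53 45.2%, MRPL38 41.1% and MRPS18C 40.2%. MRPL9 shared 38.5%, MRPL43 36.9% and MRPS28 35.8%. For MRPL12, MRPL53 and MRPS28 all of this sharing was with genes on the same strand, as was 37.5% for MRPL38. A known strand setting would not settle those levels. MRPS18A, MRPS18C and MRPL43 shared their bases with the opposite strand only, and MRPL9 shared 6.51% with the same strand.

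Summed over the members of each subunit, expression was lower in both co-cultures. In monoculture replicates 1 to 4 the MRPL genes summed to 2278, 2190, 2333 and 2284 CPM, in the hepatic replicates to 2050, 2088, 1971 and 2145 CPM, and in the cardiac replicates to 2104, 1912, 2016 and 2155 CPM. Every monoculture library lay above every co-culture library, and the co-cultures overlapped each other. The MRPS sums were 1357, 1296, 1439 and 1384 CPM in monoculture, 1183, 1271, 1210 and 1264 in the hepatic, and 1252, 1157, 1176 and 1310 CPM in the cardiac co-culture. Here cardiac replicate 4 (1310 CPM) overlapped monoculture replicate 2 (1296 CPM), and the hepatic libraries lay below all monoculture libraries. The mean MRPL sum was 9.15% lower in the hepatic and 9.89% lower in the cardiac co-culture, and the mean MRPS sum 10.02% and 10.7% lower. Without cardiac replicate 4 the cardiac values were 11.48% and 12.8%.

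The balance between the subunits moved little. The ratio of the MRPL to the MRPS sum was 1.66 ± 0.030 in monoculture, 1.68 ± 0.048 in hepatic and 1.67 ± 0.032 in cardiac libraries (SD, n = 4), and all 3 ranges overlapped. The ratio was highest in hepatic replicate 1 (1.73) and lowest in monoculture replicate 3 (1.62). No test was made of these sums, since members are not replicates.

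**Figure D1:**
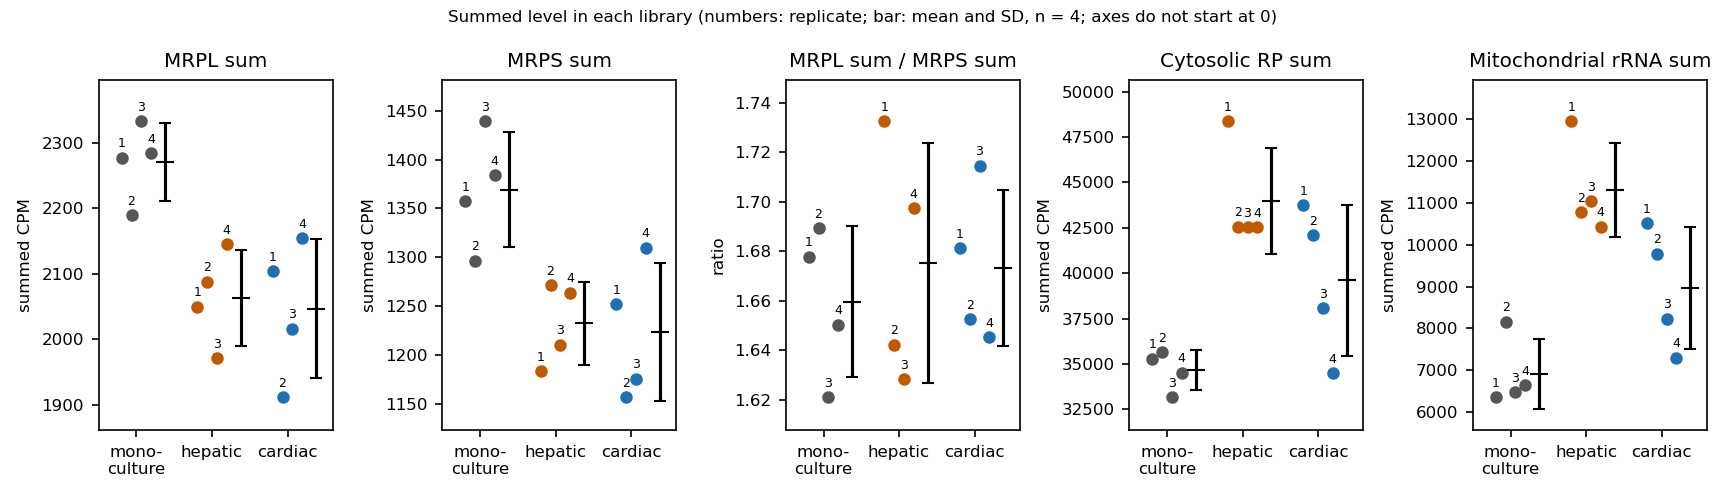
Summed CPM of the MRPL genes, the MRPS genes, their ratio, the cytosolic ribosomal protein (RP) genes and the mitochondrial rRNAs, one point per library with its replicate number, and mean with SD (n = 4) at the right of each group. The MRPL sums of all 8 co-culture libraries lie below the 4 monoculture libraries, while the sums of the cytosolic genes and of the mitochondrial rRNAs are higher in the hepatic libraries.

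Gene by gene, the hepatic co-culture had 18 members lower than monoculture and 1 higher (edgeR quasi-likelihood test, adjusted p under 0.05 over 17468 tested genes). Over all tested genes, 13.6% were called lower and 14.4% higher, and over the 13709 tested protein-coding genes 16.5% and 15.9%. The lower members were 13 of the 49 MRPL genes (26.5%) and 5 of the 28 MRPS genes (17.9%), the latter near the protein-coding share. The median log2 fold change was -0.14 over the MRPL and -0.16 over the MRPS genes, against 0.01 over all tested genes. Estimates were below 0 for 67 of 77 members (87.0%), and for 48.4% of all tested genes. In 22 members all hepatic libraries lay below all monoculture libraries (15.4% of all tested and 18.5% of tested protein-coding genes did so), and in 0 members they lay above (15.1% of all tested genes). The 22 were 16 MRPL genes (32.7%) and 6 MRPS genes (21.4%). All 77 members passed the filter on low counts.

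**Figure D2:**
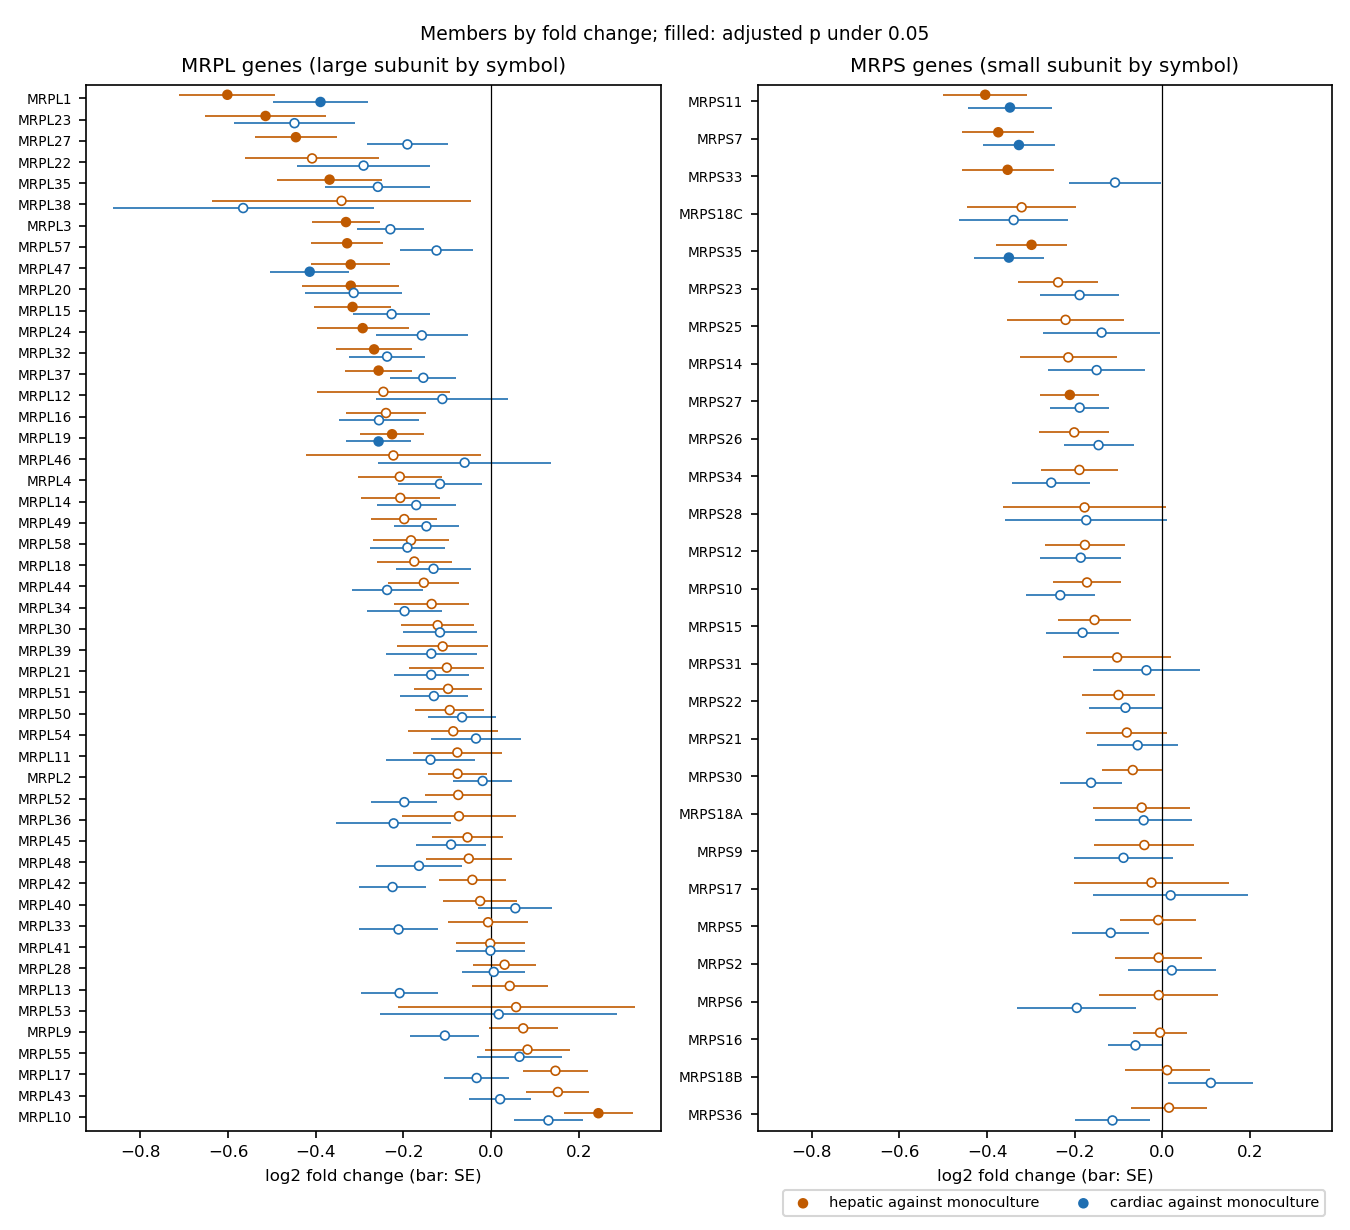
Log2 fold change of each member in the hepatic (orange) and cardiac (blue) co-culture against monoculture, with SE bars, MRPL genes at the left and MRPS genes at the right, sorted by the hepatic value; filled points have an adjusted p under 0.05. Estimates lie left of 0 for 67 of 77 members in the hepatic and 68 of 77 in the cardiac co-culture, and the single filled point right of 0 is MRPL10.

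MRPL1 had the lowest estimate of the members in the hepatic co-culture. It is the protein of the mobile stalk beside the exit site for tRNA (GRCh38 chr4:77862520-77952790). It had 36.8, 34.3, 40.9 and 39.4 CPM in monoculture replicates 1 to 4, 19.4, 26.1, 25.2 and 29.1 CPM in the hepatic, and 29.1, 25.5, 28.9 and 32.0 CPM in the cardiac replicates. All co-culture libraries lay below all monoculture libraries, and hepatic replicate 1 was lowest. The log2 fold change was -0.60 ± 0.11 in the hepatic (SE, edgeR adjusted p = 0.000597) and -0.39 ± 0.11 in the cardiac co-culture (adjusted p = 0.0350).

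MRPL27, MRPL3 and MRPL23 also fell in the hepatic co-culture. MRPL27, whose bacterial counterpart reaches toward the peptidyl transferase centre, had 33.6, 33.2, 30.0 and 30.0 CPM in monoculture and 22.1, 22.9, 22.2 and 25.9 CPM in the hepatic co-culture, with no overlap. Its log2 fold change was -0.45 ± 0.09 (edgeR adjusted p = 0.00174). In the cardiac co-culture it had 26.8, 24.9, 27.5 and 31.7 CPM, where replicate 4 overlapped monoculture, and the estimate of -0.19 ± 0.09 did not pass (adjusted p = 0.199). MRPL3, an rRNA-binding protein near the same centre, changed by -0.33 ± 0.08 in the hepatic co-culture (adjusted p = 0.00380), from 105 ± 5.12 to 83.8 ± 9.91 CPM (SD, n = 4). MRPL23, at the tunnel exit, changed by -0.51 ± 0.14 (adjusted p = 0.00986), and its monoculture libraries spread from 14.9 to 25.4 CPM and overlapped the hepatic ones (12.8 to 15.8).

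MRPL47, the counterpart of the bacterial tunnel-exit protein L29, was lower in both co-cultures. Its level was 50.01, 49.3, 54.3 and 51.1 CPM in monoculture, 35.8, 42.4, 38.7 and 47.1 CPM in hepatic and 41.2, 33.7, 37.1 and 41.7 CPM in cardiac libraries. No co-culture library reached a monoculture library. The changes were -0.32 ± 0.09 (edgeR adjusted p = 0.0127) and -0.41 ± 0.09 (adjusted p = 0.0135). It shares 9.05% of its exon bases with ACTL6A on the opposite strand, at 81.0 CPM against 43.6 for MRPL47 over all libraries, so without a known strand setting its level is uncertain.

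MRPL19, the counterpart of bacterial L19, had the smallest change among the members lower in both co-cultures. Monoculture held 57.9, 56.1, 55.2 and 54.1 CPM, the hepatic co-culture 44.1, 47.0, 52.95 and 46.8 CPM, and the cardiac co-culture 43.6, 49.4, 45.0 and 48.9 CPM. The groups did not overlap, though hepatic replicate 3 came close to monoculture. The changes were -0.23 ± 0.07 in the hepatic (edgeR adjusted p = 0.0281) and -0.26 ± 0.07 in the cardiac co-culture (adjusted p = 0.0395).

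Of the small subunit genes, MRPS7, MRPS11 and MRPS35 were lower in both co-cultures. MRPS7, an rRNA-binding protein of the subunit's head (chr17:75261674-75266373), had 97.5, 89.5, 100.5 and 97.3 CPM in monoculture, 66.5, 81.6, 72.9 and 75.7 in hepatic and 78.0, 67.1, 73.6 and 87.8 CPM in cardiac libraries. Only cardiac replicate 4 came near the lowest monoculture library, and no library crossed. The changes were -0.37 ± 0.08 (edgeR adjusted p = 0.00247) and -0.33 ± 0.08 (adjusted p = 0.0231). MRPS7 shares 10.8% of its exon bases with GGA3 and MIF4GD on the opposite strand, and MRPS11 shares 9.17%, so both levels are uncertain to that extent.

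MRPS11, a protein of the platform (chr15:88467453-88480773), went from 28.6, 26.8, 31.3 and 28.3 CPM in monoculture to 22.5, 23.1, 18.9 and 22.4 CPM in hepatic and 22.0, 20.0, 23.8 and 24.5 CPM in cardiac libraries. Again the groups did not overlap with monoculture, and hepatic replicate 3 was lowest. The changes were -0.40 ± 0.10 (edgeR adjusted p = 0.00413) and -0.35 ± 0.10 (adjusted p = 0.0324). MRPL46, which starts 34 bases away on the opposite strand, had 5.04 ± 0.53 CPM in monoculture and changed by -0.22 ± 0.20 and -0.06 ± 0.20, neither past the threshold (adjusted p = 0.433 and 0.886).

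MRPS35, found in mitochondrial ribosomes alone (chr12:27710773-27756295), held 72.8, 74.3, 73.7 and 70.2 CPM in monoculture, 49.9, 62.6, 58.7 and 65.4 in hepatic and 60.8, 53.2, 54.2 and 60.1 CPM in cardiac libraries. The monoculture libraries were tightly grouped, and every co-culture library was lower. The changes were -0.30 ± 0.08 (edgeR adjusted p = 0.00981) and -0.35 ± 0.08 (adjusted p = 0.0163). MRPS33, also specific to mitochondria, changed by -0.35 ± 0.10 in the hepatic co-culture (adjusted p = 0.0173) and by -0.11 ± 0.10 in the cardiac co-culture (adjusted p = 0.558).

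**Figure D3:**
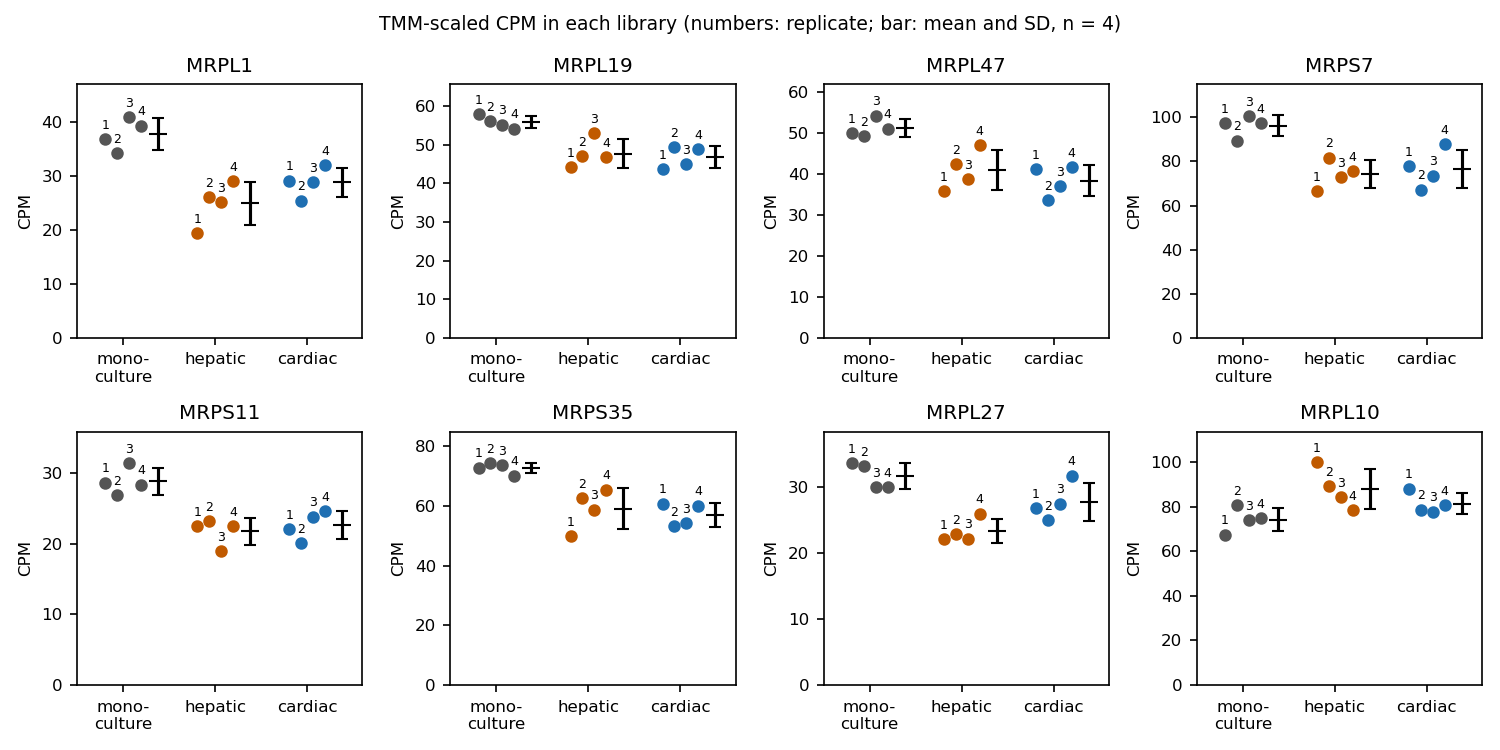
CPM in each library, scaled by TMM, for the 6 members called lower in both co-cultures and for MRPL27 and MRPL10; numbers are replicates and bars are mean and SD (n = 4). In the first 6 panels every co-culture library lies below every monoculture library, and MRPL10 is higher in the hepatic libraries with 1 library overlapping.

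MRPL10 was the member that rose in the hepatic co-culture. It anchors the stalk that holds MRPL12. Its 67.5, 80.55, 73.95 and 74.96 CPM in monoculture overlapped with 99.8, 89.2, 84.3 and 78.5 CPM in the hepatic co-culture, where replicate 4 fell below monoculture replicate 2. The change was 0.24 ± 0.08 (edgeR adjusted p = 0.0260), and the call was lost without monoculture replicate 1, 3 or 4 or hepatic replicate 1 or 2. In the cardiac co-culture it had 88.1, 78.6, 77.8 and 80.6 CPM (0.13 ± 0.08, adjusted p = 0.310). MRPL12 itself, at 8.77 ± 1.22 CPM in monoculture, changed by -0.25 ± 0.15 and -0.11 ± 0.15 (adjusted p = 0.241 and 0.692).

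The other 8 large and small subunit genes that fell in the hepatic co-culture were MRPL57 (-0.33 ± 0.08), MRPL15 (-0.32 ± 0.09), MRPL37 (-0.26 ± 0.08), MRPL20 (-0.32 ± 0.11), MRPL24 (-0.29 ± 0.10), MRPL32 (-0.27 ± 0.09), MRPL35 (-0.37 ± 0.12) and MRPS27 (-0.21 ± 0.07). The last 5 of these and MRPL37 fell outside the rule for named genes and were named after their values were seen. MRPL32 is known as a target of the protease that matures it in the matrix, and MRPL37, MRPL57 and MRPS27 have no bacterial counterpart. The calls of MRPL1, MRPL3, MRPL23, MRPL27, MRPL47, MRPL57, MRPS7, MRPS11 and MRPS35 held in all 12 fits that left out 1 library each. The count of lower members was 11 without hepatic replicate 3, of which 3 were MRPS genes. The MRPS count was 3 without monoculture replicate 4 too. Over all tested genes 1748 and 1800 were lower in these fits, against 2374 with all libraries.

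In the cardiac co-culture, 6 members were lower than monoculture and 0 higher, the 6 described above. Over all tested genes 3.33% were lower and 4.93% higher, 8.26% in all, and over tested protein-coding genes 4.14% were lower and 5.73% higher. The 6 were 3 MRPL and 3 MRPS genes, and the medians were -0.15 over the MRPL and -0.15 over the MRPS genes, against 0.01 over all tested genes. Estimates were below 0 for 68 of 77 members (88.3%), and for 49.1% of all tested genes. At an unadjusted p under 0.05, 26 members were lower and 0 higher, with 11.9% of all tested genes lower and 13.8% higher. DESeq2 called 12 lower and 0 higher, with 6.9% of the 13921 genes it gave an adjusted p lower and 9.64% higher. In 17 members the cardiac libraries lay below all monoculture libraries (7.47% of all tested and 9.07% of tested protein-coding genes), and in 0 above (7.77% of all tested genes).

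The cardiac count rested on single libraries. Without cardiac replicate 4 it was 14 (8 MRPL and 6 MRPS genes), with 9.16% of 17726 tested genes lower and 9.90% higher, and medians of -0.20 and -0.15. For the 6 above, the changes were then -0.44 (MRPL1), -0.28 (MRPL19), -0.46 (MRPL47), -0.40 (MRPS7), -0.39 (MRPS11) and -0.38 (MRPS35). The 14 held these 6, with MRPS34 (-0.35), MRPS10 (-0.30), MRPL16, MRPS27, MRPL35, MRPL23, MRPL37 and MRPL3; MRPL16 is named after its values were seen. The count was 0 without cardiac replicate 2, cardiac replicate 3 or monoculture replicate 3, 2 without cardiac replicate 1 or monoculture replicate 1, 3 without monoculture replicate 4 and 10 without hepatic replicate 1. Calls over all tested genes moved in the same fits. In that order, 69, 104, 109, 169, 199, 170 and 863 genes were lower, against 581 with all libraries. Both co-cultures were compared with the same monoculture libraries, so their shared members are not independent of each other. The members' medians remained below 0 in both comparisons under DESeq2 size factors and under upper-quartile scaling, where the MRPL medians were -0.10 and -0.12. Upper-quartile scaling moved the split over all genes in the cardiac comparison from 862 higher and 581 lower to 1076 and 414, and called 5 members lower there. In the hepatic comparison it moved the split from 2518 higher and 2374 lower to 2875 and 1927.

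Set directly against each other, the co-cultures gave 0 members called in either direction (edgeR, with 3.27% of all tested genes higher and 2.91% lower in the cardiac co-culture, 6.18% in all). At an unadjusted p under 0.05, 3 members were higher and 5 lower, below the 10.4% and 10.2% of all tested genes. DESeq2 called 0 members, with 5.44% of 15212 genes higher and 4.57% lower. The medians were -0.01 over the MRPL and 0.01 over the MRPS genes. For 75 of 77 members the 95% interval of the difference lay within 1.5-fold in either direction, so larger differences than that are outside these intervals while smaller ones remain possible. In 2 members, MRPL9 and MRPL33, named after their values were seen, all cardiac libraries were below all hepatic ones (5.92% of all tested genes). MRPL13, at 60.1, 61.7, 59.7 and 70.0 CPM in hepatic and 61.0, 43.6, 52.4 and 54.2 CPM in cardiac libraries, had the lowest difference (-0.25 ± 0.09, adjusted p = 0.0990), which passed without cardiac replicate 1. MRPL27 had the highest (0.25 ± 0.09, adjusted p = 0.119). Among the MRPS genes MRPS6 had the lowest difference (-0.19) and MRPS33 the highest (0.24).

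**Figure D4:**
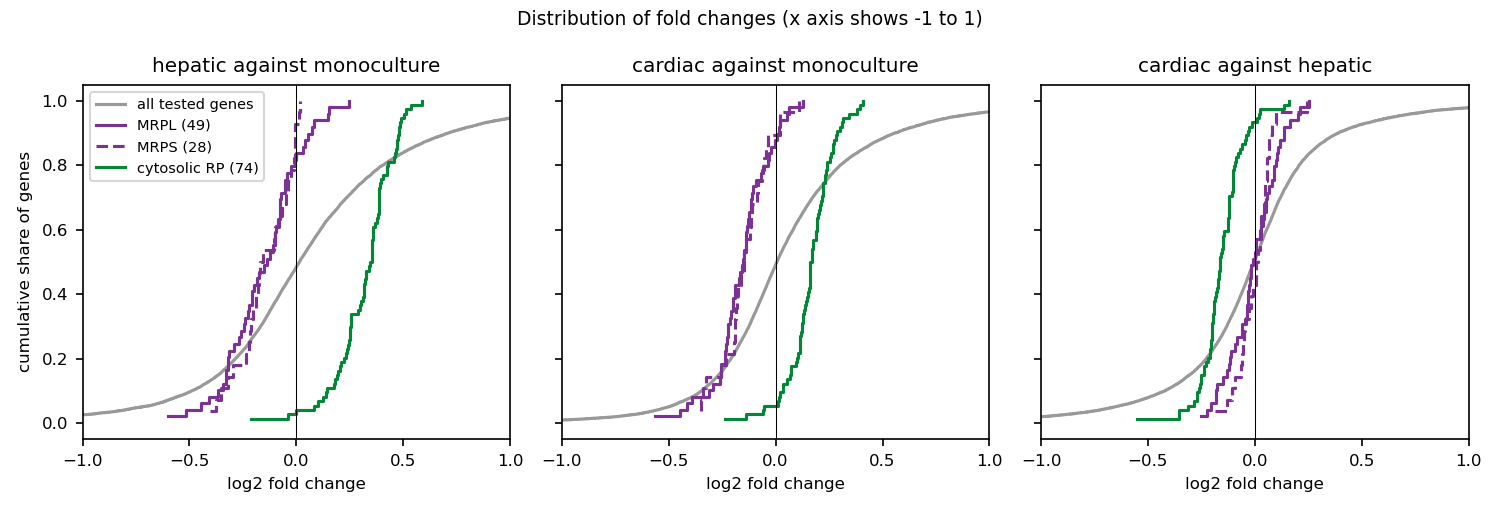
Cumulative share of genes by log2 fold change in the 3 comparisons, for all tested genes (grey), the 49 MRPL genes (solid purple), the 28 MRPS genes (dashed purple) and the 74 cytosolic ribosomal protein genes (green); the axis is limited to -1 to 1. Both purple curves lie left of 0 against monoculture, with medians of -0.14 to -0.16, and cross 0.5 near 0 between the co-cultures.

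Grouped by structure rather than by name, the counts of calls did not change. MRPS18A and MRPS30 sit in the large subunit despite their names, and MRPS36 is a component of the 2-oxoglutarate dehydrogenase complex. Counted this way, 13 of 51 large and 5 of 25 small subunit genes were lower in hepatic and 3 and 3 in cardiac libraries. MRPS18A, MRPS30 and MRPS36 themselves changed by -0.05 ± 0.11, -0.07 ± 0.07 and 0.01 ± 0.09 in the hepatic co-culture, none past the threshold. Of the 44 members with a bacterial counterpart, 12 (27.3%) were lower and 1 higher in the hepatic co-culture. In the cardiac co-culture 4 (9.09%) were lower, and the medians were -0.17 and -0.18. Of the 32 found in mitochondria alone, 6 (18.8%) and 2 (6.25%) were lower, with medians of -0.11 and -0.14. These 2 shares lay near those of tested protein-coding genes, and no test compared these classes.

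Several members named for their role, whatever they did, did not pass in either comparison with monoculture. MRPS18B and MRPS18C, paralogs of MRPS18A in the small subunit, changed by 0.01 ± 0.10 and -0.32 ± 0.12 in the hepatic co-culture (edgeR adjusted p = 0.951 and 0.0602). MRPS18B had the highest estimate of the MRPS genes in the cardiac co-culture (0.11). MRPS12, of the decoding centre, changed by -0.18 ± 0.09 (adjusted p = 0.164), and MRPL58, a peptidyl-tRNA hydrolase that was built into the ribosome, by -0.18 ± 0.09 (adjusted p = 0.121). MRPL45, which tethers the ribosome to the inner membrane, changed by -0.05 ± 0.08 (adjusted p = 0.656). Its pseudogene MRPL45P2 had 13.8% of its level, so reads may be split between them.

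The ribosomal proteins of the cytosol moved the other way. Of 74 such genes, 56 were higher and 0 lower in the hepatic co-culture, with a median log2 fold change of 0.35, against 14.4% of all tested genes higher. In the cardiac co-culture 6 (8.11%) were higher, against 4.93% of all tested and 5.73% of tested protein-coding genes, with a median of 0.17. That cardiac count was 38 without cardiac replicate 4, 17 without hepatic replicate 1, 3 without hepatic replicate 2 or 4, 2 without hepatic replicate 3, and 0 without cardiac replicate 1, 2 or 3 or monoculture replicate 1, 3 or 4. Over all tested genes the higher calls moved too, from 862 with all libraries to 1754 (9.90%) without cardiac replicate 4 and 1154 without hepatic replicate 1. They were 683 to 791 without hepatic replicate 2, 3 or 4, and 194 to 359 in the fits with a count of 0. Their summed level was 26.9% higher in the hepatic and 14.3% higher in the cardiac co-culture (19.2% without cardiac replicate 4). The ratio of the cytosolic to the mitochondrial sum was 9.54 ± 0.60 in monoculture, 13.4 ± 1.13 in hepatic and 12.2 ± 1.64 in cardiac libraries (SD, n = 4), or 12.9 ± 0.90 without cardiac replicate 4 (n = 3). Cytosolic ribosomal protein genes have many processed pseudogenes, so their counts are uncertain.

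The rRNAs of the mitochondrial ribosome were higher in the hepatic co-culture as well. MT-RNR2, the large subunit rRNA, rose by 0.74 ± 0.11 in the hepatic (edgeR adjusted p = 0.000140) and 0.39 ± 0.11 in the cardiac co-culture (adjusted p = 0.0401), and MT-RNR1, the small subunit rRNA, by 0.45 ± 0.14 in the hepatic co-culture (adjusted p = 0.0239). The cardiac call of MT-RNR2 held without cardiac replicate 4 (0.48, adjusted p = 0.0031) and was lost without cardiac replicate 1, 2 or 3, hepatic replicate 3 or monoculture replicate 1, 3 or 4. In the hepatic co-culture 1 of the 2 calls was lost without hepatic replicate 1 or monoculture replicate 1, 3 or 4. Their summed level in replicates 1 to 4 was 6357, 8162, 6466 and 6633 CPM in monoculture, 12954, 10781, 11044 and 10433 in hepatic and 10520, 9784, 8230 and 7296 CPM in cardiac libraries. Cardiac replicate 4 lay within the monoculture range, and all hepatic libraries lay above it. The libraries were selected by poly(A) tail per the labels' protocols, so these values count the rRNA caught by that selection. The 13 mitochondrially encoded mRNAs had a median log2 fold change against monoculture of 0.02 in hepatic and -0.04 in cardiac libraries. MT-ND2 (-0.53 ± 0.12) and MT-CYB (-0.42 ± 0.11), subunits of complexes I and III, were lower in the hepatic, and MT-ATP8 (-0.60 ± 0.13), an ATP synthase subunit with group means of 10.8 to 16.3 CPM, in the cardiac co-culture. The hepatic 2 of 13 (15.4%) lay near the 13.6% of all tested and 16.5% of tested protein-coding genes called lower. The cardiac 1 of 13 was 7.69%, against 3.33% and 4.14%. With cardiac replicate 4 left out, 5 of the 13 were lower in the cardiac co-culture: MT-ND2 (-0.37), MT-CYB (-0.34), MT-ATP6 (-0.27), MT-ND1 (-0.26) and MT-ATP8 (-0.61). Of all tested genes 9.16% were lower in that fit. Without cardiac replicate 2 or 3 or monoculture replicate 3 the count was 0, in fits that called 69, 104 and 109 of all tested genes lower.

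Genes that assist mitochondrial translation were described from lists of related genes, against 13.6% of all tested genes lower and 14.4% higher in the hepatic and 3.33% and 4.93% in the cardiac comparison. Over tested protein-coding genes these shares were 16.5%, 15.9%, 4.14% and 5.73%. Leaving out 1 library moved the lower calls over all genes too, to between 1748 and 2774 in the hepatic and 69 and 1624 in the cardiac comparison. Of 14 translation factors, 4 were lower and 1 higher in the hepatic co-culture and 0 were called in the cardiac one. Without cardiac replicate 4 the cardiac count was 4 lower: TUFM (-0.28), TSFM (-0.36), GFM2 (-0.26) and TACO1 (-0.36), with 9.16% of all tested genes lower. It was 1 without hepatic replicate 1 or monoculture replicate 2. GFM1, the elongation factor that moves the ribosome along, fell (-0.38 ± 0.08, edgeR adjusted p = 0.00264), as did MTFMT, which formylates the initiator tRNA (-0.37 ± 0.11), and GUF1 (-0.24 ± 0.07), while OXA1L, the inner membrane insertase, rose (0.25 ± 0.08), a call lost without hepatic replicate 1 or 3 or monoculture replicate 1, 2 or 3. Without monoculture replicate 3 the hepatic count was 2 lower. Of 17 aminoacyl-tRNA synthetases 4 were lower and 1 higher in the hepatic co-culture, led by LARS2 (-0.55 ± 0.10, adjusted p = 0.000461), MARS2 (-0.53 ± 0.11) and WARS2 (-0.28 ± 0.09), and 0 were called in the cardiac co-culture. The hepatic count was 2 lower without hepatic replicate 3 or monoculture replicate 3. Leaving out cardiac replicate 4, LARS2 (-0.41) and YARS2 (-0.33) were lower in the cardiac co-culture, and without hepatic replicate 1 the count was 1. Of 5 mitoribosomal proteins with other names, DAP3 of the small subunit was lower in the hepatic co-culture (-0.23 ± 0.08, adjusted p = 0.0385), a call lost without hepatic replicate 1 or 3 or monoculture replicate 1, 3 or 4. Of the 5, 0 were called in the cardiac co-culture, and 2 were lower without hepatic replicate 1.

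Assembly factors and rRNA modifiers fell in 7 of 25 cases and rose in 2 in the hepatic co-culture. MRM2, an rRNA methyltransferase, changed by -0.48 ± 0.10 (edgeR adjusted p = 0.00210) and RCC1L by -0.33 ± 0.07 (adjusted p = 0.00301). TFB1M, which dimethylates the small subunit rRNA, rose by 0.55 ± 0.12 (adjusted p = 0.00232). In the cardiac co-culture GTPBP10, a large subunit assembly GTPase, and RCC1L were lower (-0.43 ± 0.11 and -0.24 ± 0.07). GTPBP10 was also among the 7 lower in the hepatic co-culture (-0.36 ± 0.11, adjusted p = 0.0170). Without cardiac replicate 4 the cardiac count was 5, with DHX30 (-0.30), MPV17L2 (-0.72) and MRM2 (-0.27) as well. It was 0 without cardiac replicate 1, 2 or 3 or monoculture replicate 1, 3 or 4, and 1 without hepatic replicate 2, 3 or 4. The hepatic count of lower genes was 4 without monoculture replicate 4.

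Of 13 genes for mitochondrial transcription, genome upkeep and RNA stability, 7 were lower and 1 higher in the hepatic co-culture and 3 lower in the cardiac co-culture. TWNK changed by -0.57 ± 0.09 in the hepatic (edgeR adjusted p = 0.000265) and was higher in the cardiac than in the hepatic co-culture (0.40 ± 0.09, adjusted p = 0.0144), which was 0.30 without cardiac replicate 4 and lost its call without hepatic replicate 3. SSBP1, the single-strand DNA-binding protein of the mitochondrial genome, fell in both (-0.44 ± 0.09 and -0.35 ± 0.09), as did PNPT1, an RNA-degrading enzyme (-0.47 ± 0.12 and -0.49 ± 0.12). SLIRP, an mRNA stabilizer, fell in the cardiac co-culture (-0.37 ± 0.09). Its hepatic estimate of -0.25 ± 0.09 fell just short of the threshold (adjusted p = 0.0505). POLRMT, the mitochondrial RNA polymerase, rose in the hepatic co-culture (0.25 ± 0.07, adjusted p = 0.0101). Without cardiac replicate 4, 5 genes of this list were lower in the cardiac co-culture, with TWNK (-0.27) and TEFM (-0.58) added. The count was also 5 without hepatic replicate 1, 1 without cardiac replicate 1, and 0 without cardiac replicate 2 or 3 or monoculture replicate 1, 3 or 4. Of 10 regulators of mitochondrial biogenesis, PPRC1 (-0.42 ± 0.09), PPARGC1B (-0.92 ± 0.21) and TFAM (-0.29 ± 0.08), which is also in the list before, were lower in the hepatic co-culture. None (0) was called in the cardiac co-culture, and PPARGC1B was lower without cardiac replicate 4 (-0.68).

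**Figure D5:**
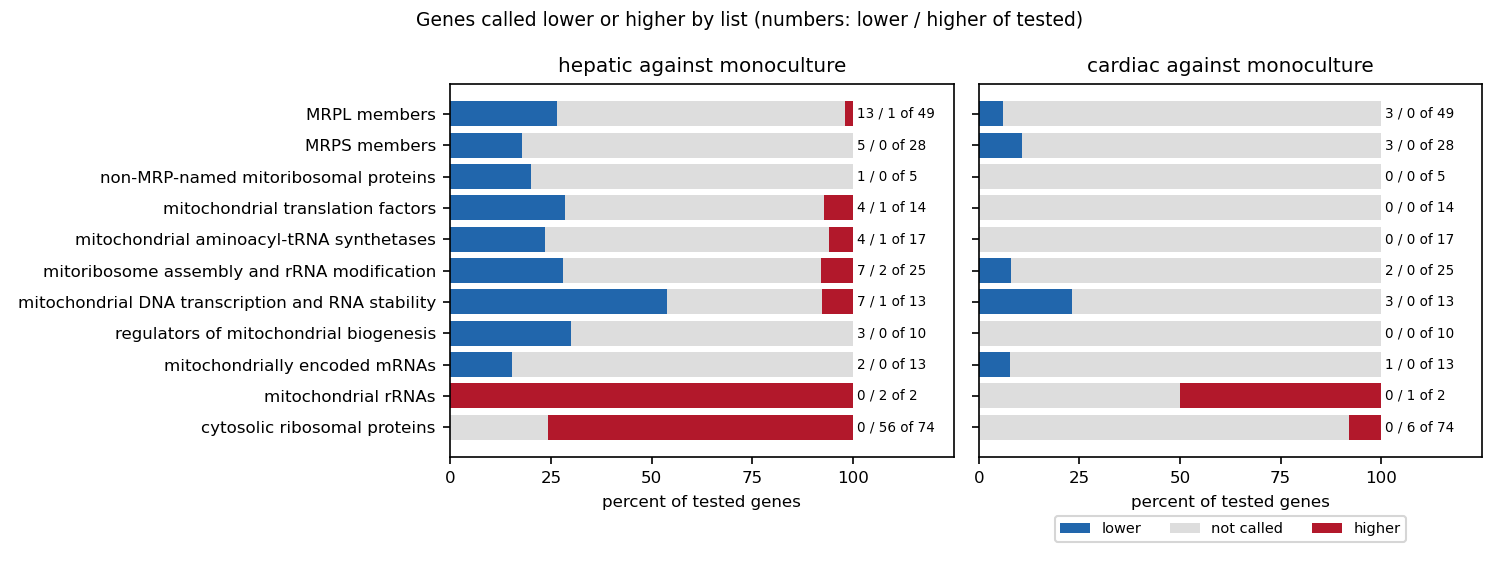
Percent of tested genes called lower (blue), higher (red) or not called (grey) in each list, hepatic at the left and cardiac at the right, with counts beside each bar. In the hepatic co-culture 13 of 49 MRPL and 5 of 28 MRPS genes are lower, while 56 of 74 cytosolic ribosomal protein genes are higher.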

How the data were processed

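RNA of 12 cancer tissue libraries was analysed from the raw counts per gene deposited by the authors (no normalization). HISAT2 2.2.1 and featureCounts 2.0.6, with DESeq2 1.42.0 and build GRCh38, are listed in the submitters' processing notes. For strand setting and annotation release, nothing was given in the sources used here. All 58735 identifiers were found in GENCODE 29, which gave symbols and coordinates.

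Groups came from the sample titles. Counts were tested with edgeR 4.0.16 (R 4.3.3): TMM scaling, filterByExpr, 1 robust quasi-likelihood fit over the 12 libraries, two-sided, Benjamini-Hochberg over 17468 genes, threshold 0.05. Tested genes held 99.9% of the counts, and the biological coefficient of variation common to them was 14.9%. CPM is TMM-scaled, and the fit was tested on simulated data.

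Named are, per comparison, up to 10 called members per direction by smallest adjusted p, the 3 highest and lowest levels per length, each subunit's extreme changes, 9 members chosen by role, and up to 3 called genes per related list. Members and lists were chosen with earlier results of these data known. Alternatives were DESeq2, its size factors, a replicate block, upper-quartile scaling, dropping the low-count filter, the 2 groups alone, subunits by structure, a 10 CPM limit and each library left out.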

Additional observations from a re-analysis of the deposited data

Results flagged for a closer look

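Of 123 sets of 4 libraries examined for a library far from the other libraries of its group by Dixon's 95% criterion, 8 were marked, and chance marks about 1 in 20. Hepatic replicate 1 had a summed cytosolic ribosomal protein level of 48366 CPM, with the other hepatic libraries between 42525 and 42562 CPM. The same library had 60.6 CPM of MRPS12, with the others between 45.8 and 47.4 CPM. Hepatic replicate 3 was low for MRPL20 (22.1 CPM, others 27.4 to 28.1), MRPL57 (24.6 CPM, others 26.6 to 26.8) and MRPS11 (18.9 CPM, others 22.4 to 23.1). In monoculture, replicate 3 was high for MRPL57 (33.8 CPM, others 32.4 to 32.6), and replicate 2 was low for MRPS33 (20.5 CPM, others 24.7 to 25.3). Cardiac replicate 1 was high for MRPL15 (36.9 CPM, others 32.8 to 33.1).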

How the results depend on the processing

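No result changed direction past a test under any alternative run. The count of members lower in the cardiac co-culture against monoculture was 6, of which 3 were MRPL and 3 MRPS genes. It was 12 with DESeq2 (7 and 5) and 13 without the low-count filter (8 and 5). Over all genes, DESeq2 called 961 of 13921 lower and the unfiltered fit 991 of 33284, against 581 of 17468 in the main fit. With each library left out in turn the count of lower members ranged from 0 to 14 (MRPL genes 0 to 8, MRPS genes 0 to 6). The lower calls over all genes ranged from 69 to 1624 in these fits. For the hepatic co-culture the lower members ranged from 11 to 23 (MRPL 8 to 16, MRPS 3 to 7) and the higher ones from 0 to 1. There the lower calls over all genes ranged from 1748 to 2774. Between the co-cultures 0 to 1 were lower in the cardiac one, with 1 (MRPL13) only without cardiac replicate 1. The cause of these shifts was not tested. With the replicate number as a block, 19 members were lower and 1 higher in the hepatic, 5 lower in the cardiac co-culture, and 0 differed between them. Over all 17468 genes the block fit called 2259 lower and 2401 higher in the hepatic and 512 lower in the cardiac co-culture. Between the co-cultures it called 454 higher and 437 lower in the cardiac one. Same-numbered libraries deviated with correlations of -0.0816 to 0.113, and 3 of 12 correlated best with their own number, so the numbers were not treated as a pairing. Depth limits the lowest members: MRPL38 had 21 to 85 counts per library and an SE of 0.30 in both comparisons with monoculture. Its cardiac estimate of -0.57 was the lowest of all members and was not called.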

Other observations

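The members varied less between libraries of a group than genes in general. The median coefficient of variation over the 77 members was 6.37% in monoculture, 8.86% in hepatic and 8.97% in cardiac libraries, against 10.8%, 13.6% and 13.4% over all tested genes, which include genes at lower levels. Over the 74 cytosolic ribosomal protein genes it was 4.60%, 8.79% and 11.53%.

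The table held 75 rows for pseudogenes of members. By level, MRPL45P2 was highest at 6.004 CPM and MRPL3P1 followed at 0.668 CPM. As a share of the parent gene, MRPL45P2 had 13.8% of the level of MRPL45, and MRPS31P5 came next with 2.05% of that of MRPS31.

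MRPL43 and TWNK, which overlap at their starts on opposite strands, differed in the hepatic co-culture: MRPL43 had 51.4 CPM in monoculture and a log2 fold change of 0.15 (edgeR adjusted p = 0.123), while TWNK fell by 0.57. MRPL43 shares 36.9% of its exon bases with SEMA4G and TWNK on the opposite strand, so without a known strand setting its level is uncertain. Both members of the pair are given as values only.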
